A study of Mus musculus with 6 samples.

Results

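Endothelial genes, which mark the cells that line blood and lymph vessels, were examined on arrays of total RNA from hearts of mice that lack or keep part of *Col1a2*, the gene of the α2 chain of type I collagen. The list holds 35 genes chosen by symbol as markers of endothelium in general and of capillary, arterial, venous, angiogenic and lymphatic endothelium, and 34 of them had a probe set under their symbol among the 19505 genes named on the array. *Egfl7* was not matched and is not analysed here. The hearts came from 3 Col1a2-/- mice (homozygous knockout, labelled KO, animal numbers 2767, 2770 and 3200) and 3 Col1a2+/- mice (heterozygous, labelled HET, animal numbers 2769, 3201 and 3294), at 2 months of age on a C57/BL6 background, with 1 array per heart. Both genotypes carry a germline knockout-first allele, in which an inserted cassette interrupts the gene in all cells, so that the HET controls lack 1 working copy and no wild-type heart was analysed. The labels give the whole heart as the tissue, while the methods name the ventricles. Values are log2 signals per probe set, and the difference of genotypes is KO minus HET throughout.

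Endothelial cells are joined by VE-cadherin and claudin-5 and read growth signals through receptor kinases. VEGF acts through VEGFR2, the product of *Kdr*, while VEGFR1, the product of *Flt1*, binds VEGF tightly and signals weakly. Angiopoietins act through TIE2, and BMP9 acts through ALK1 and endoglin. ETS factors such as ERG and FLI1 and SOX factors of the F group keep endothelial identity. In the heart most endothelium is capillary, and it takes up fatty acids for the myocytes through GPIHBP1, which holds lipoprotein lipase, and CD36.

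The promoters of 4 genes that come up further on are shown as background, and no link between promoter and level was tested. *Flt1* and *Kdr* encode the VEGF receptors and differed between hearts in opposite directions, and *Rgcc* had the widest range of levels. *Efnb2* was higher in KO hearts at an unadjusted p under 0.05 from limma, though not at an adjusted p. The windows of 300 bases around the start sites are from RefSeq (build GRCm38.p6) and all lie on the minus strand, at chr5:147725962-147726261, chr5:75978406-75978705, chr14:79301586-79301885 and chr8:8661193-8661492. They are written 5′ to 3′, and capitals mark GGAAG or its complement CTTCC, 1 form of the GGAA core of sites that ETS factors bind.
Flt1: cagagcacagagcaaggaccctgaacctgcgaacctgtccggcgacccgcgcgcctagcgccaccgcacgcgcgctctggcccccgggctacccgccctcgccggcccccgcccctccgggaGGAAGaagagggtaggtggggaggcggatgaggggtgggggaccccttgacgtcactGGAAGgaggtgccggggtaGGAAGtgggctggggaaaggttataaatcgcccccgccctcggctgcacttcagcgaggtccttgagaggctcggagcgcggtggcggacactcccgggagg
Kdr: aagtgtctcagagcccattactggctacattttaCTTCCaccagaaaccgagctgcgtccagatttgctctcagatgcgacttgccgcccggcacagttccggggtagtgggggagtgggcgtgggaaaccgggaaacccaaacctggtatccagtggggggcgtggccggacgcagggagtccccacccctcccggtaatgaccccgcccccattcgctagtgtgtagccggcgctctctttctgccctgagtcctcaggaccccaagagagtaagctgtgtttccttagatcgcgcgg
Rgcc: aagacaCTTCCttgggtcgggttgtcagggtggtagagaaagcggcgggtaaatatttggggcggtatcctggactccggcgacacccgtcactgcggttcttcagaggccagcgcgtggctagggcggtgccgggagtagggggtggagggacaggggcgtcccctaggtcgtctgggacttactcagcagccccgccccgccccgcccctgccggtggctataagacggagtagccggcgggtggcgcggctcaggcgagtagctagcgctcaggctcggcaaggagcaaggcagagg
Efnb2: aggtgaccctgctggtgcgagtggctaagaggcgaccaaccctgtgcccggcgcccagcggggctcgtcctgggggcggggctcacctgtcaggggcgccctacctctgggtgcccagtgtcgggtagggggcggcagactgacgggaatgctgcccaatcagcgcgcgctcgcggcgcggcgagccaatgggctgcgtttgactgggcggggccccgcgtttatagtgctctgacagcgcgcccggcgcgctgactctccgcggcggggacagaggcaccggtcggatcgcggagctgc
GGAAG or CTTCC occurs 3 times in the window of *Flt1*, 1 time in that of *Kdr*, 1 time in that of *Rgcc* and 0 times in that of *Efnb2*. The shorter GGAA was not counted, and it is also present, without the last G, in the windows of *Flt1*, *Kdr* and *Efnb2*. RefSeq windows were at hand for 21 of the 35 genes, 27 windows in all. Of these windows 21 (77.8%) hold GGAAG on either strand, against 71.4% of the 32851 windows of all genes. A match of letters is a description of the sequence and not a bound site.

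The 6 arrays were alike, with medians between 6.64 and 6.67. *Col1a2* itself had log2 signals of 6.86, 6.84 and 6.48 in KO hearts 2767, 2770 and 3200, against 9.47, 9.06 and 9.18 in HET hearts 2769, 3201 and 3294. Its log2 difference was −2.51 (SE 0.19, adjusted p = 0.00626 from limma), and it was the only 1 of 22206 probe sets tested (0.0045%) that passed an adjusted p under 0.05. Its adjusted p was 0.0948 without HET 3294 and 0.0562 without KO 2770, at log2 differences of −2.54 and −2.56. HET 3294 stood apart in other ways. The Y-linked gene *Uty* read 2.65 there and 11.58 to 11.90 elsewhere, the atrial gene *Myl7* 13.47 and 8.07 to 12.08, and the brown fat gene *Ucp1* 8.33 and 3.60 to 4.30. The mean of 3 Y-linked genes was 3.81 in HET 3294 and 10.56 to 10.93 in the other hearts. By these levels HET 3294 came from a female and the other hearts from males. Sex was thus uneven between the genotypes, and its part in the differences was not tested. Ventricular and general myocyte markers were level, with a mean over 7 genes of 18.01 to 18.07 in KO hearts and 18.01 to 18.10 in HET hearts.

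Most endothelial genes were clearly detected, and few differed between KO and HET hearts. Of the 34 genes, 32 had a mean above a limit for dim signals of 5.97, set at the 95th percentile over 1454 receptor probe sets for smell, pheromones and taste, which a heart should not express, and *Sox17* and *Esm1* lay under it. No gene of the 34 passed an adjusted p under 0.05 (adjusted p from 0.879 to 0.996 from limma). At an unadjusted p under 0.05 from limma, 2 were higher in KO hearts, *Erg* and *Efnb2*, and 1 was lower, *Plvap*, while 31 did not pass. Of all probe sets tested, 2.67% were higher and 2.79% were lower by this rule (5.45% in all), so that the count of 3 in 34 (8.82%) is near the background. The median log2 difference of the 34 was 0.08, against −0.00062 over all probe sets tested, with 22 genes above 0 and 12 below. The median was 0.10 within the hearts of the 2700s and 0.04 within those of the 3200s. In bulk RNA, a change in the number of endothelial cells and a change in RNA per endothelial cell cannot be told apart.

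**Figure D1:**
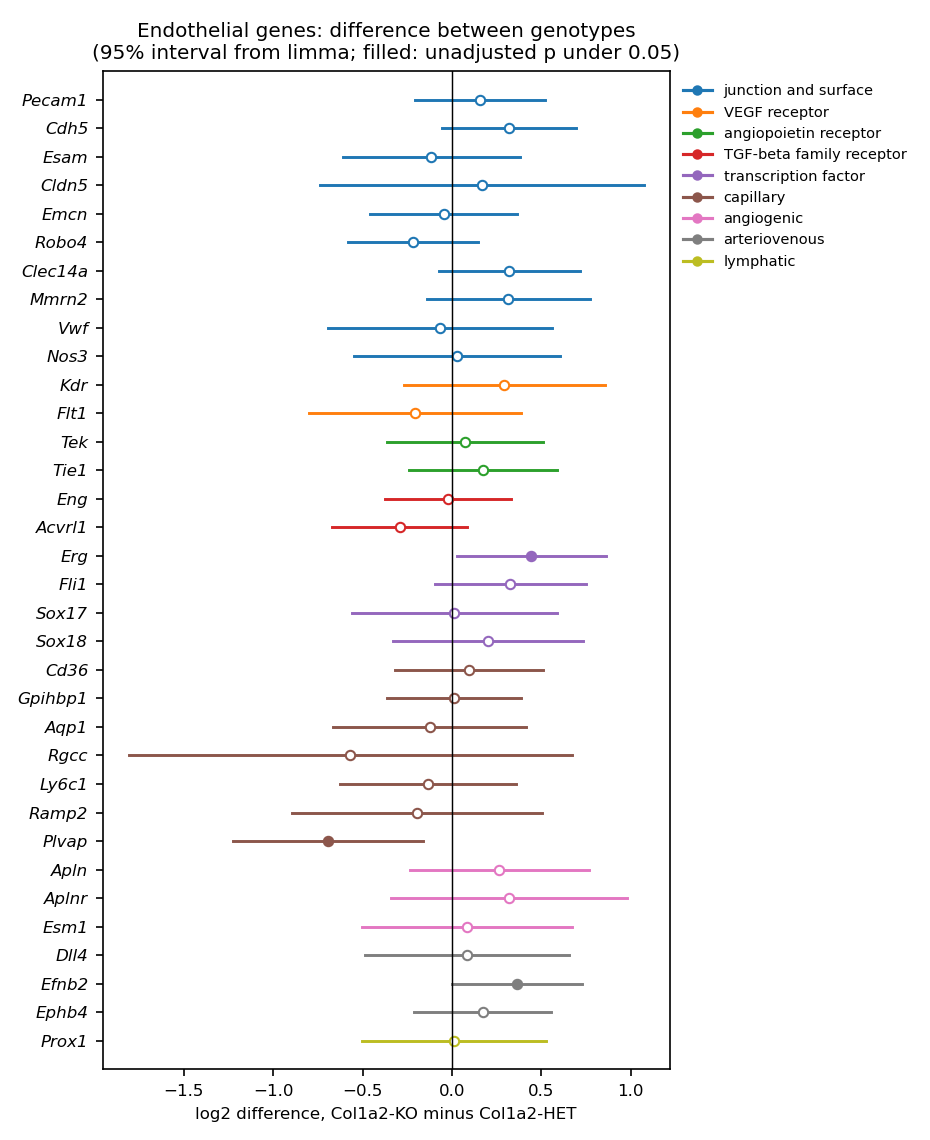
Log2 difference (KO minus HET) on the horizontal axis for each of the 34 endothelial genes, coloured by role, with points at the estimate, bars for the 95% interval from limma and filled points for an unadjusted p under 0.05. The intervals of 31 genes cross 0, and those of *Erg*, *Efnb2* and *Plvap* do not.

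The count of 3 depended on single hearts. It was 1 without KO 2767 (5.05% of all probe sets tested passed then), 1 without KO 2770 (4.65%), 1 without KO 3200 (5.28%), 2 without HET 3201 (5.28%) and 5 without HET 2769 (6.42%). The median log2 difference of the 34 genes was 0.027 without KO 2770 and 0.15 without KO 3200. With the animal numbers, 2700s or 3200s, fitted as a block, 1 gene passed, *Plvap*, against 5.14% of all probe sets tested. Without HET 3294 the 1 gene (of 34, against 5.35% of all probe sets tested) was *Mmrn2*, at a log2 difference of 0.49 (unadjusted p = 0.0289 from limma), against 0.32 with all hearts.

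Among the transcription factors, *Erg*, which encodes an ETS factor needed for endothelial junctions and identity, had log2 signals of 11.24, 11.19 and 11.31 in KO hearts 2767, 2770 and 3200, against 10.95, 10.98 and 10.48 in HET hearts 2769, 3201 and 3294. The lowest KO heart lay above the highest HET heart, and HET 3294 was lowest of all. The log2 difference was 0.44 (SE 0.18, 95% interval 0.03 to 0.86, unadjusted p = 0.0388, adjusted p = 0.906 from limma). It was 0.28 without HET 3294 (unadjusted p = 0.123 from limma), and 0.27 and 0.58 within the 2700s and the 3200s. *Fli1*, the gene of a related ETS factor, had 10.86, 10.79 and 10.65 in KO hearts, against 10.72, 10.43 and 10.16 in HET hearts, and KO 3200 lay under HET 2769. *Sox18*, a SOX factor of vessel development, had 9.13 ± 0.08 in KO hearts and 8.93 ± 0.47 in HET hearts (SD, n = 3 each). *Sox17*, its relative in arterial endothelium, lay under the dim limit, at 5.67 ± 0.34 and 5.66 ± 0.41 in KO and HET hearts. Of the 4 factor genes, 1 passed the unadjusted test, against 5.45% of all probe sets tested, and 1 of so few does not set this role apart.

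Of the 3 arterial and venous genes, 1 passed the unadjusted test, against 5.45% of all probe sets tested, and 1 of so few does not set this role apart. *Efnb2* encodes ephrin-B2, a ligand on arterial endothelium that binds the receptor EPHB4 on veins. Its log2 signals were 11.54, 11.75 and 11.66 in KO hearts 2767, 2770 and 3200, against 11.43, 11.25 and 11.17 in HET hearts 2769, 3201 and 3294. The genotypes did not overlap, and the log2 difference was 0.36 (SE 0.16, 95% interval 0.0022 to 0.73, unadjusted p = 0.0489, adjusted p = 0.906 from limma). It was 0.31 without HET 3294 (unadjusted p = 0.114 from limma). *Ephb4* had means of 10.98 ± 0.15 in KO hearts and 10.81 ± 0.16 in HET hearts. The Notch ligand gene *Dll4*, also arterial, had 10.16 ± 0.45 in KO hearts and 10.08 ± 0.29 in HET hearts (SD, n = 3 each), and the hearts of both genes overlapped. The direction of *Dll4* turned within the series of animal numbers, with log2 differences of −0.09 within the 2700s, −0.06 within the 3200s and −0.07 with the series as a block, against 0.09 over all hearts.

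Of the 7 capillary genes, 1 passed the unadjusted test, with less signal in KO hearts. Of all probe sets tested, 5.45% passed in either direction and 2.79% in this one, and 1 of so few does not set this role apart. *Plvap* encodes the protein of the diaphragms that close fenestrae and caveolae, and it is found in venous and endocardial more than in myocardial capillary endothelium. It had log2 signals of 6.60, 6.32 and 5.91 in KO hearts 2767, 2770 and 3200, against 6.82, 6.75 and 7.35 in HET hearts 2769, 3201 and 3294. The genotypes did not overlap, with HET 3294 highest and KO 3200 lowest, the last of these under the dim limit. The log2 difference was −0.70 (SE 0.23, 95% interval −1.23 to −0.16, unadjusted p = 0.0159, adjusted p = 0.879 from limma). It was −0.36 within the 2700s, where HET 2769 is the only HET heart, and −1.14 within the 3200s, where KO 3200 is the only KO heart. It was −0.51 without HET 3294 (unadjusted p = 0.0611 from limma) and −0.51 without KO 3200 (unadjusted p = 0.0647 from limma).

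**Figure D2:**
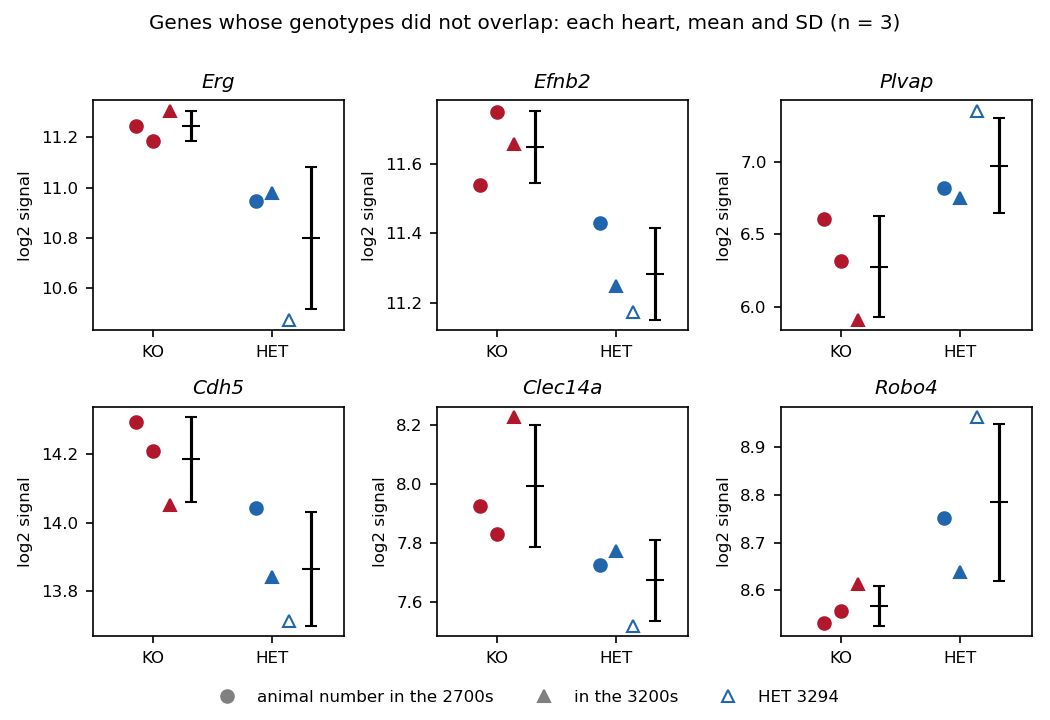
Log2 signal of each heart for the 6 genes whose KO and HET hearts did not overlap, with the mean and SD of 3 hearts in black, circles for animal numbers in the 2700s, triangles for the 3200s and an open triangle for HET 3294. KO hearts lie above HET hearts for *Erg*, *Efnb2*, *Cdh5* and *Clec14a* and below them for *Plvap* and *Robo4*.

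The genes of fatty acid and water transport and the other capillary genes did not pass the test. *Cd36*, the fatty acid transporter that myocytes also express, had 17.35 ± 0.15 in KO hearts and 17.25 ± 0.25 in HET hearts, and *Gpihbp1* had 12.39 ± 0.11 and 12.38 ± 0.16 (log2 signal, SD, n = 3 each). The 95% interval of the log2 difference ran from −0.32 to 0.51 for *Cd36* and from −0.36 to 0.39 for *Gpihbp1*. The water channel gene *Aqp1* had 13.61 ± 0.18 in KO hearts and 13.73 ± 0.45 in HET hearts. The antigen gene *Ly6c1* had 15.70 ± 0.32 in KO hearts and 15.83 ± 0.27 in HET hearts, and *Ramp2*, a partner of the adrenomedullin receptor, had 9.94 ± 0.49 and 10.14 ± 0.52. *Rgcc*, a regulator of the cell cycle that marks cardiac capillary cells, had 11.51 ± 1.03 in KO hearts and 12.08 ± 0.91 in HET hearts, the widest spread of the list. All 6 genes overlapped between the genotypes.

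The 10 genes of junctions and the endothelial surface held 3 whose genotypes did not overlap, and none of the 10 passed the unadjusted test. *Cdh5*, the gene of VE-cadherin, had log2 signals of 14.29, 14.21 and 14.05 in KO hearts 2767, 2770 and 3200, against 14.04, 13.84 and 13.71 in HET hearts 2769, 3201 and 3294. The gap between KO 3200 and HET 2769 was 0.01, and the log2 difference was 0.32 (SE 0.17, 95% interval −0.06 to 0.70, unadjusted p = 0.0874 from limma). *Clec14a*, which encodes a lectin-like surface protein, had 7.92, 7.83 and 8.23 in KO hearts, against 7.73, 7.77 and 7.52 in HET hearts, a log2 difference of 0.32. *Robo4*, the gene of a guidance receptor that steadies vessels, had 8.53, 8.56 and 8.61 in KO hearts, against 8.75, 8.64 and 8.96 in HET hearts, a log2 difference of −0.22. Over the whole list, 4 genes had all KO hearts above all HET hearts and 2 had them below. That is 17.6% of 34 genes, against 10.6% of all probe sets tested (5.13% above and 5.47% below).

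The other surface genes overlapped between genotypes. *Pecam1*, the gene of CD31, by which endothelium is commonly stained, had log2 signals of 12.51, 12.56 and 12.70 in KO hearts 2767, 2770 and 3200, against 12.40, 12.31 and 12.59 in HET hearts 2769, 3201 and 3294. KO 2767 and KO 2770 lay under HET 3294, and the log2 difference was 0.16 (95% interval −0.21 to 0.52, adjusted p = 0.956 from limma). *Emcn*, a sialomucin of veins and capillaries, had 12.44 ± 0.12 in KO hearts and 12.48 ± 0.25 in HET hearts. *Esam*, an adhesion molecule of tight junctions, had 8.68 ± 0.39 and 8.79 ± 0.17, and *Mmrn2*, a matrix partner of CLEC14A, had 9.86 ± 0.18 and 9.55 ± 0.31. *Vwf*, which encodes the clotting factor stored in venous and endocardial endothelium, had 9.20, 9.28 and 9.10 in KO hearts, against 8.76, 9.08 and 9.93 in HET hearts. HET 3294 was highest for *Vwf*, and the log2 difference was −0.07 with all hearts and 0.27 without it. *Cldn5*, the gene of claudin-5, had 7.24 ± 0.66 and 7.07 ± 0.71 in KO and HET hearts. *Nos3*, the gene of endothelial nitric oxide synthase, had 7.77 ± 0.30 in KO hearts and 7.74 ± 0.45 in HET hearts.

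The receptor genes did not pass the test in either direction. *Kdr* had means of 14.11 ± 0.34 in KO hearts and 13.82 ± 0.40 in HET hearts, and *Flt1* had 13.09 ± 0.45 and 13.30 ± 0.34. *Tek*, which encodes TIE2, had 11.23 ± 0.08 in KO hearts and 11.16 ± 0.32 in HET hearts, which overlapped. *Tie1*, whose product partners TIE2, had log2 signals of 10.94, 10.94 and 10.46 in KO hearts, against 10.51, 10.64 and 10.66 in HET hearts, with KO 3200 lowest. *Eng*, the gene of endoglin, was among the least variable, at 14.17 ± 0.01 in KO hearts and 14.19 ± 0.14 in HET hearts (SD, n = 3 each). Its 95% interval for the log2 difference was −0.37 to 0.33. *Acvrl1*, which encodes ALK1, had 9.17, 9.25 and 9.53 in KO hearts 2767, 2770 and 3200, against 9.52, 9.69 and 9.62 in HET hearts 2769, 3201 and 3294. KO 3200 lay within the HET hearts, and the log2 difference was −0.29 (95% interval −0.67 to 0.09, unadjusted p = 0.115 from limma).

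Genes of sprouting and lymphatic vessels did not pass the test either. *Apln* encodes apelin, a peptide from tip cells, and had log2 signals of 8.24, 7.78 and 7.49 in KO hearts, against 7.81, 7.50 and 7.42 in HET hearts, which overlapped. *Aplnr*, the gene of its receptor, had 10.34 ± 0.33 in KO hearts and 10.02 ± 0.57 in HET hearts, and *Esm1*, a secreted proteoglycan of tip cells, was under the dim limit at 4.57 ± 0.52 and 4.49 ± 0.21 (SD, n = 3 each). *Prox1*, the factor of lymphatic identity that myocytes also express, had 11.63, 11.25 and 10.89 in KO hearts, against 11.34, 11.44 and 10.94 in HET hearts, which overlapped.

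Related vascular genes from 6 further lists, 99 genes measured of 103, gave a similar share, with 5 higher and 3 lower in KO hearts at an unadjusted p under 0.05 (8.08%, against 5.45% of all probe sets tested) and 0 at an adjusted p. Among 24 ligands and co-receptors, 1 was higher and 2 were lower. *Nrp2*, a co-receptor for VEGF-C, had 10.05 ± 0.16 in KO hearts and 9.53 ± 0.41 in HET hearts. The placental growth factor gene *Pgf*, whose product binds VEGFR1, had log2 signals of 6.99, 7.54 and 7.68 in KO hearts, against 7.85, 8.05 and 8.08 in HET hearts, with no overlap. *Ramp1*, which encodes a subunit of the CGRP receptor, had 8.05 ± 0.35 in KO hearts and 8.54 ± 0.14 in HET hearts (SD, n = 3 each). *Vegfa*, the main ligand of VEGFR2, had log2 signals of 14.04, 13.95 and 13.68 in KO hearts, against 13.93, 13.81 and 13.71 in HET hearts, which overlapped. Of 18 Notch and BMP target genes, the Notch ligand gene *Jag2* was higher, at 8.84 ± 0.09 in KO hearts and 8.48 ± 0.10 in HET hearts. Of 38 other endothelial genes, the surface sialomucin gene *Cd34* (14.24 ± 0.08 in KO hearts and 13.88 ± 0.11 in HET hearts) and the factor gene *Lyl1* (6.71 ± 0.13 and 6.29 ± 0.09) were higher. Of 8 lymphatic genes, *Itga9*, an integrin chain of lymphatic valves, was higher, at 11.56 ± 0.34 in KO hearts and 10.99 ± 0.06 in HET hearts, and the chemokine gene *Ccl21a* was lower, at 9.83 ± 0.17 and 10.28 ± 0.25. None of 9 genes of endothelial activation and none of 7 endocardial genes passed this unadjusted test from limma, and no gene of these lists passed an adjusted p. The count of 8 over the 6 lists was 3 without HET 3294 (5.35% of all probe sets tested passed then), 5 without KO 2767 (5.05%) and 2 without KO 2770 (4.65%). It was 7 without KO 3200 (5.28%), 8 without HET 3201 (5.28%) and 11 without HET 2769 (6.42%). With the animal-number series fitted as a block it was 3 (5.14%).

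No marker of vessel-associated, stromal or immune cells passed an adjusted p between genotypes from limma. Of 10 pericyte and smooth muscle markers, 2 were higher and 0 lower in KO hearts at an unadjusted p under 0.05 (20.0%, against 5.45% of all probe sets tested). The mean of the 10 was 10.94 to 11.03 in KO hearts and 10.73 to 10.92 in HET hearts. These did not overlap but nearly met, with KO 2767 at 10.937 and HET 2769 at 10.915. The 2 genes, *Mcam* and *Notch3*, were not among the markers named in the plan, *Rgs5*, *Kcnj8*, *Acta2*, *Tagln* and *Myh11*. *Mcam*, a surface protein of pericytes, smooth muscle and some endothelium, had 10.11 ± 0.55 in KO hearts and 9.26 ± 0.24 in HET hearts, and the receptor gene *Notch3* had 7.11 ± 0.07 and 6.57 ± 0.20 (SD, n = 3 each). *Acta2*, the gene of smooth muscle actin, had a log2 difference of −0.54 (unadjusted p = 0.0776 from limma), and of −0.65 with the series as a block (unadjusted p = 0.0496 from limma). Of 5 macrophage markers, 1 was higher at an unadjusted p, *C1qa*, and their mean was 9.66 to 10.08 in KO hearts and 9.56 to 9.70 in HET hearts, which overlapped. Of 5 fibroblast markers none passed this test from limma, and 1 did with the block, *Tcf21*, at −0.66. The part of these cells in the levels of the endothelial genes was not tested.

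Several endothelial genes split the hearts by animal number rather than by genotype. The 3200s hold KO 3200 and HET 3201 and 3294, and the 2700s hold KO 2767 and 2770 and HET 2769. HET 3294, the heart without Y-linked signal, is in the 3200s, so that sex was uneven between the series too. The labels do not say what the numbers mark, and litter, date of sampling and array run cannot be told apart from them. In 1 fit with genotype as the other term, 7 of the 34 genes differed between the 3200s and the 2700s at an unadjusted p under 0.05 from limma (20.6%), 4 higher and 3 lower in the 3200s, against 6.33% of all probe sets tested (3.12% higher and 3.21% lower). None passed an adjusted p (adjusted p from 0.284 to 0.788 for the 7), and neither did any other of the 22206 probe sets. The hearts of the 3200s and the 2700s did not overlap in 11 of the 34 genes (32.4%), against 12.5% of all probe sets tested. The comparison was chosen after the values had been seen, and the shares describe these 6 hearts.

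**Figure D3:**
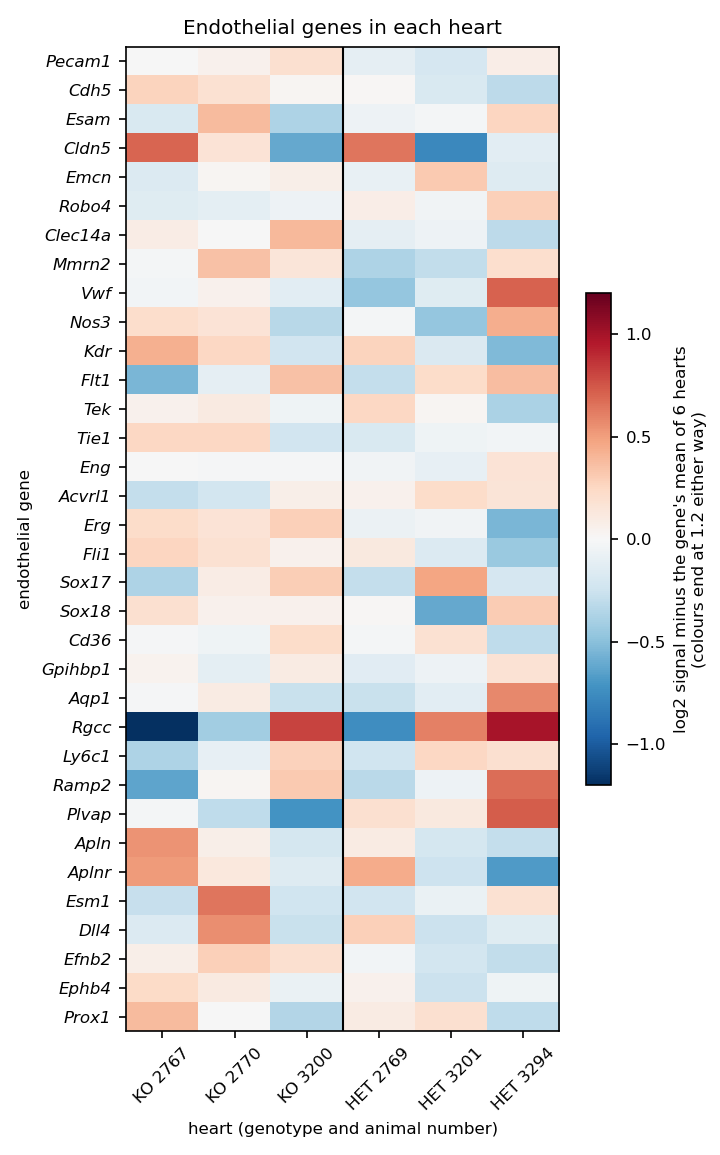
Log2 signal of each of the 34 endothelial genes (rows) in each heart (columns, KO hearts on the left) minus the mean of that gene over the 6 hearts, red for higher and blue for lower, with colours ending at 1.2 either way. *Rgcc*, *Flt1* and *Ly6c1* are higher in KO 3200, HET 3201 and HET 3294, while *Kdr*, *Cldn5* and *Aplnr* are higher in KO 2767, KO 2770 and HET 2769.

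*Rgcc*, the capillary gene of widest spread, differed most between the series. Its log2 signals were 12.60, 12.40 and 12.78 in KO 3200, HET 3201 and HET 3294, against 10.56, 11.37 and 11.05 in KO 2767, KO 2770 and HET 2769. The log2 difference, 3200s minus 2700s, was 1.59 (SE 0.25, unadjusted p = 0.000229, adjusted p = 0.284 from limma), 3.01 times as high. It was 1.52 without HET 3294. With a trend and robust prior in limma its adjusted p was 0.0122, the only alternative under the threshold. In the others it ran from 0.108 with dim probe sets left out to 0.9996 without HET 2769, from limma. In the fit of genotype and series with all hearts, the log2 difference of *Rgcc* between genotypes was −0.04, against −0.57 in the fit without the series.

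The VEGF receptor genes differed between the series of numbers in opposite directions. *Flt1* had log2 signals of 13.54, 13.42 and 13.57 in KO 3200, HET 3201 and HET 3294, against 12.65, 13.09 and 12.91 in KO 2767, KO 2770 and HET 2769. *Kdr* had 13.73, 13.79 and 13.43 in KO 3200, HET 3201 and HET 3294, against 14.39, 14.21 and 14.23 in KO 2767, KO 2770 and HET 2769. Neither gene overlapped between the series. The log2 difference, 3200s minus 2700s, was 0.63 for *Flt1* (SE 0.19, unadjusted p = 0.0114, adjusted p = 0.688 from limma) and −0.59 for *Kdr* (SE 0.18, unadjusted p = 0.0121, adjusted p = 0.688 from limma). Between genotypes, with the series in the fit, the log2 difference was 0.0035 for *Flt1* and 0.10 for *Kdr*.

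*Cldn5* had log2 signals of 6.53, 6.38 and 7.03 in KO 3200, HET 3201 and HET 3294, against 7.85, 7.32 and 7.80 in KO 2767, KO 2770 and HET 2769. Its log2 difference between the series was −1.07 (SE 0.24, unadjusted p = 0.00219 from limma). *Aplnr* was also lower in the 3200s, at 9.82 ± 0.28, against 10.54 ± 0.21 in the 2700s. *Ly6c1*, a surface antigen of mouse capillary cells and monocytes, was higher, at 16.01 ± 0.04, against 15.53 ± 0.13, with no overlap. *Ramp2* had 10.35 ± 0.37 in the 3200s, against 9.73 ± 0.33 in the 2700s (log2 signal, SD, n = 3 each). Its hearts overlapped, and it did not pass the unadjusted test without HET 3294 (unadjusted p = 0.106 from limma). The count of 7 was 2 without HET 2769 (4.43% of all probe sets tested passed then) and 3 without KO 3200 (5.15%), which leave 1 series with a single genotype. It was 6 without KO 2767 (5.5%), 7 without HET 3201 (6.26%), 8 without KO 2770 (6.59%) and 8 without HET 3294 (6.61%).

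**Figure D4:**
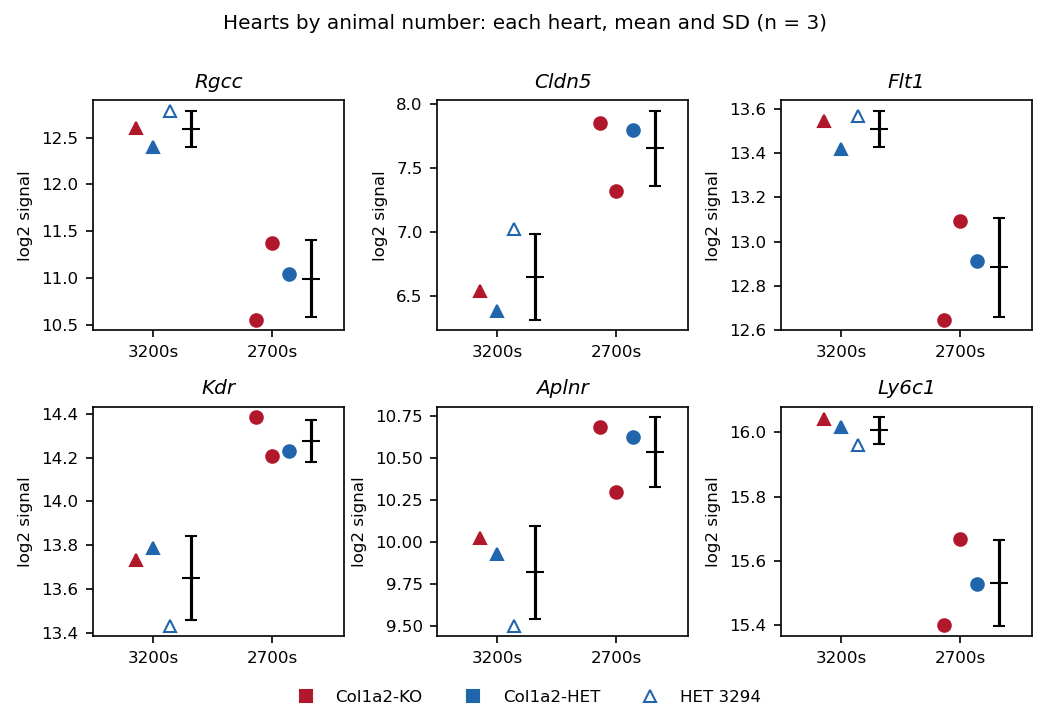
Log2 signal of each heart for 6 endothelial genes, with animal numbers in the 3200s on the left and in the 2700s on the right, red for KO, blue for HET, open for HET 3294, and the mean and SD of 3 hearts in black. The 6 are the genes at an unadjusted p under 0.05 from limma between the series whose 3200s and 2700s did not overlap. *Ramp2*, which also passed, overlapped and is not shown. By this choice of genes, KO and HET hearts of the same series lie on the same side for each gene, at varying distances.

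Some genes outside the list also differed between the series. *S1pr1*, the sphingosine 1-phosphate receptor gene of endothelium, had a mean log2 signal of 11.69 in the 3200s and 10.45 in the 2700s, and the flow-responsive factor gene *Klf2* had 8.71 and 7.87. The Notch target genes *Hey1* (10.01 in the 3200s and 10.51 in the 2700s) and *Nrarp* (6.05 and 6.75) were lower in the 3200s. Of the 99 related genes, 13 passed an unadjusted p under 0.05 between the series, 4 higher and 9 lower in the 3200s (13.1%, against 6.33% of all probe sets tested). Of the markers of other cells, 1 of 5 fibroblast, 1 of 10 pericyte and smooth muscle, 0 of 5 macrophage and 1 of 2 erythroid genes passed an unadjusted p under 0.05 between the series from limma, and 0 passed an adjusted p. *Tcf21*, a fibroblast factor gene, differed by −0.72 on the log2 scale, 3200s minus 2700s, while the matrix genes *Lum* and *Dcn* of the same list differed by 0.28 and 0.01. *Mcam* differed by −0.68, and the erythroid gene *Alas2* by 0.58. The mean of the 10 pericyte and smooth muscle markers was 10.73 to 10.95 in the 3200s and 10.92 to 11.03 in the 2700s. The mean of 5 fibroblast markers was 12.18 to 12.55 in the 3200s and 12.29 to 12.53 in the 2700s. The part of other cells in these differences was not tested.

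**Figure D5:**
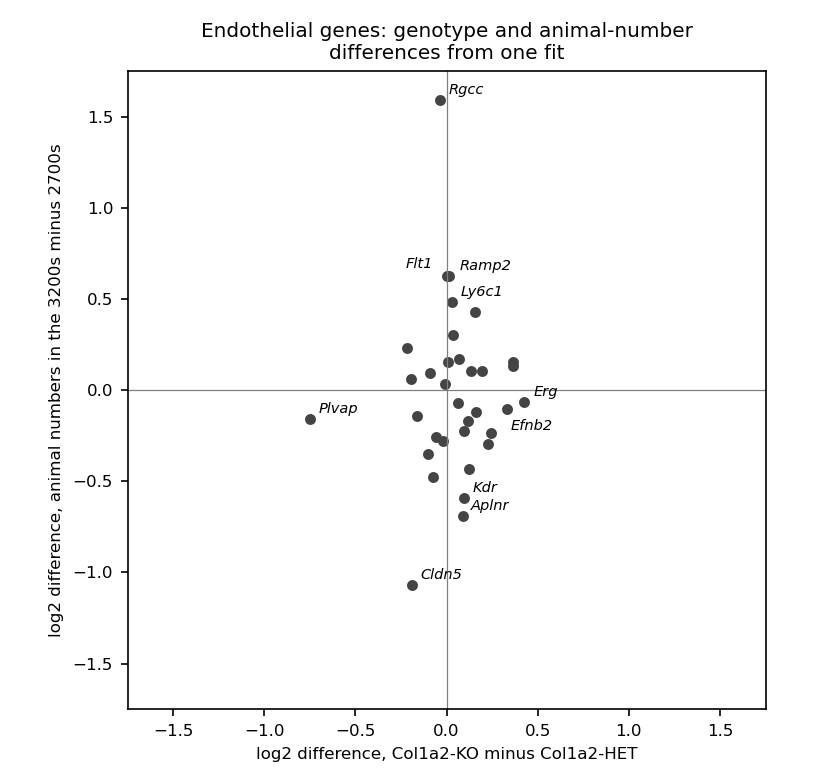
Each point is 1 of the 34 endothelial genes, with its log2 difference between genotypes (KO minus HET) on the horizontal axis and between series of animal numbers (3200s minus 2700s) on the vertical axis, both from 1 fit with both terms. The points spread further up and down, to 1.59 and −1.07, than left and right, to −0.75 and 0.42.

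In that fit the median size of the log2 difference, without its sign, was 0.11 between genotypes and 0.23 between the series over the 34 genes, against 0.15 and 0.16 over all probe sets tested. In the fit of genotype alone, the median size between genotypes was 0.17 over the 34 genes, against 0.15 over all probe sets tested. The median deviation of the 34 genes from their own means was −0.0034, 0.08 and 0.0056 in KO hearts 2767, 2770 and 3200, and −0.04, −0.07 and 0.02 in HET hearts 2769, 3201 and 3294. KO 2770 was the highest heart for 6 of the 34 genes and the lowest for 0, against 15.4% and 16.4% of the probe sets above the dim limit. HET 3294 was the highest heart for 11 of the 34 genes and the lowest for 10, so that it lay at an end for 61.8% of them, against 45.5% of the 12818 probe sets above the dim limit. Among others it was highest for *Vwf*, *Plvap*, *Aqp1*, *Nos3* and *Sox18* and lowest for *Kdr*, *Erg*, *Fli1*, *Tek* and *Cdh5*. KO 2767 lay at an end for 50.0% of the genes, against 34.0% of the bright probe sets. Atrial markers, as a mean over 4 genes, were at 15.26 in HET 3294, against 11.74 and 10.67 in HET 2769 and 3201. In KO hearts 2767, 2770 and 3200 their mean was 13.68, 12.49 and 12.93. Without HET 3294 all 4 were higher in KO hearts at an unadjusted p under 0.05 from limma, against 5.35% of all probe sets tested. Adipocyte markers, as a mean over 5 genes, were at 9.01 in HET 3294 and at 7.20 to 7.54 in the other hearts. *Bmp10*, a ligand of ALK1 made by atrial myocytes, was at 13.89 in HET 3294 and at 3.53 to 5.35 in the other hearts. The part of sex and of atrial and fat RNA in the values of HET 3294 was not tested. Nor was that of atrial RNA in the differences without this heart. A test of whether the genotypes differed by series gave 0 of the 34 genes at an unadjusted p under 0.05 from limma, against 3.76% of all probe sets tested, and 0 at an adjusted p.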

How the data were processed

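Total RNA from hearts of 3 Col1a2-KO and 3 Col1a2-HET mice had been labelled with a Pico kit and hybridised to Affymetrix Clariom S Mouse arrays. The deposited log2 signals are the authors' normalized summaries, 1 per probe set, made with Affymetrix Expression Console per the labels. The methods name Transcriptome Analysis Console and iPathwayGuide for the comparison of the groups. Versions and the normalization are not given in the sources used here. Of 28846 entries, 6640 controls were left out. Symbols came from the array's annotation table, in which 2634 of the 22206 probe sets tested have none. The brightest probe set by mean stood for a gene.

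Genotypes were compared in R 4.3.3 with lmFit and eBayes from limma 3.58.1, KO minus HET, without covariates (4 residual degrees of freedom), and the Benjamini-Hochberg adjustment covered every probe set tested. A fit with genotype and series of animal numbers gave the differences between the series. A design of 3 hearts against 3 gives an exact permutation p of 0.1 at the smallest. The members and lists were chosen with earlier results of these data known. All members were described, with values per heart for those at an unadjusted p under 0.05, with no overlap, among the 3 largest differences in either direction or of smallest p in their role, and in related lists up to 3 genes of smallest p. *Vegfa*, *Bmp10*, *S1pr1*, *Klf2*, *Hey1*, *Nrarp*, *Tcf21*, *Acta2*, *Lum*, *Dcn*, *Alas2* and the comparison of the series were chosen after the values were seen. Alternatives were quantile normalization, median centring, leaving out dim probe sets, Student's t-test, arrayWeights, a robust prior with a trend, the series as a block or taken singly, the mean of a gene's probe sets and leaving out each heart. The code was tested on simulated data. The number of arrays limits the precision. Figures were drawn with matplotlib 3.10.9.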

Additional observations from a re-analysis of the deposited data

How the results depend on the processing

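No endothelial gene passed an adjusted p under 0.05 between genotypes in any of 14 alternatives with a test (lowest adjusted p 0.739 from limma). Of the 34 genes, 16 kept the sign of their difference in all 14 and 18 changed it in at least 1. The number at an unadjusted p under 0.05, 3 as reported, was 1 with Student's t-test and 1 with the animal-number series fitted as a block, the log2 difference of *Col1a2* being −2.63 in that block (adjusted p = 0.00478 from limma), and it lay between 1 and 5 with 1 heart left out. No paired analysis was possible because the genotypes share no replicate number. The median log2 difference lay between 0.027 and 0.15 with 1 heart left out. *Col1a2* differed by −2.60 to −2.39 with 1 heart left out, and Student's t-test gave −2.51 with an adjusted p of 0.547. The count over the related lists was 8 as reported, 3 with the block and 2 to 11 with 1 heart left out. The number of genes that differed between the series, 7 as reported, was 2 to 8 with 1 heart left out, and these alternatives were chosen after seeing the data. The causes were not tested. With dim probe sets left out, *Sox17* and *Esm1* have no value. The t-test was not run between the series.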
